A study of Mus musculus with 29 samples.

Results

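The 10 ligand genes described here encode secreted signals of 4 families: Wnt4, Wnt7a, Wnt7b and Wnt8b, Fgf3 and Fgf15, Ihh and Shh, and Bmp4 and Bmp7. They were taken by symbol from the 48709 gene identifiers counted in every RNA library, and Fgf3, Wnt4 and Ihh were put among them because H3K9ac peaks lay at their gene ends in 1 sorted population and not in the other. H3K9ac is acetylation of lysine 9 of histone H3, a chromatin mark found mainly around the starts of active genes. The study sorted nuclei of mouse embryonic cortex at E16.5 by the presence (Tbr2+) or absence (Tbr2-) of Tbr2, the T-box factor encoded by Eomes that marks intermediate (basal) progenitors. Samples are labelled by treatment with either vehicle or trichostatin A (TSA), an inhibitor of zinc-dependent histone deacetylases. No other agent or genetic change is named for any group. RNA-seq libraries numbered 3 for Tbr2+ vehicle, 2 for Tbr2+ TSA, 3 for Tbr2- vehicle and 2 for Tbr2- TSA. H3K9ac ChIP-seq libraries numbered 3, 4, 4 and 4 in the same order, and each group had 1 input library. The labels state no strain, no TSA dose, route or length of treatment and no number of embryos per library. The extraction text speaks of RNA from whole tissue although the samples are labelled by sorted population. Nothing in the labels says that replicates came from separate embryos, so p-values measure the spread between these libraries, which may be technical.

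RNA libraries held 18567111 to 26282652 gene counts and H3K9ac libraries 15173175 to 30267202 tags. Eomes, the sorted marker, had 371 to 548 CPM (gene counts scaled to a common library size by TMM) in the Tbr2+ libraries and 8.24 to 22.0 CPM in the Tbr2- libraries, so every RNA library matched its label. The 4 Tbr2+ TSA libraries of the ChIP-seq stood apart with 31823 to 40053 peaks each, against 47835 to 82164 in the other 11. They also had a peak within 1 kb of either end of 58.4 to 59.6% of the 21156 protein-coding genes, against 62.7 to 66.6% elsewhere. Any comparison with Tbr2+ TSA chromatin below carries that difference, and its part in the results was not tested.

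Wnt proteins bind Frizzled receptors with Lrp5 or Lrp6 and, in the canonical branch, stabilise beta-catenin, which acts with TCF/LEF factors on target genes. Fgfs signal through receptor tyrosine kinases, hedgehog proteins relieve the block that Patched places on Smoothened and so change Gli factors, and Bmps act through paired serine/threonine kinase receptors and Smads that switch on Id genes. In the developing telencephalon Wnt and Bmp ligands are known from the dorsal midline and its cortical hem, Shh from ventral territory, and Wnt7a and Wnt7b from cortical progenitors and neurons that signal to brain vessels.

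H3K9ac sorted the 10 genes into 3 patterns. Wnt7a, Wnt7b, Fgf15 and Bmp7 had a gene-end peak, that is a peak within 1 kb of either annotated gene end, in all 15 libraries. Wnt4, Fgf3, Ihh and Shh had one in all 8 Tbr2- libraries and in none of the 7 Tbr2+ libraries, with vehicle and with TSA. Wnt8b and Bmp4 had one in 4 and 2 libraries. For Fgf3, Wnt4 and Ihh the Tbr2- pattern is what chose them, so it is given as a description without a test. Of protein-coding genes, 0.525% were apart in this way with vehicle in either direction, 0.421% had a gene-end peak in all Tbr2- vehicle libraries and no Tbr2+ vehicle library, and 1.38% showed the same with TSA.

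**Figure D1:**
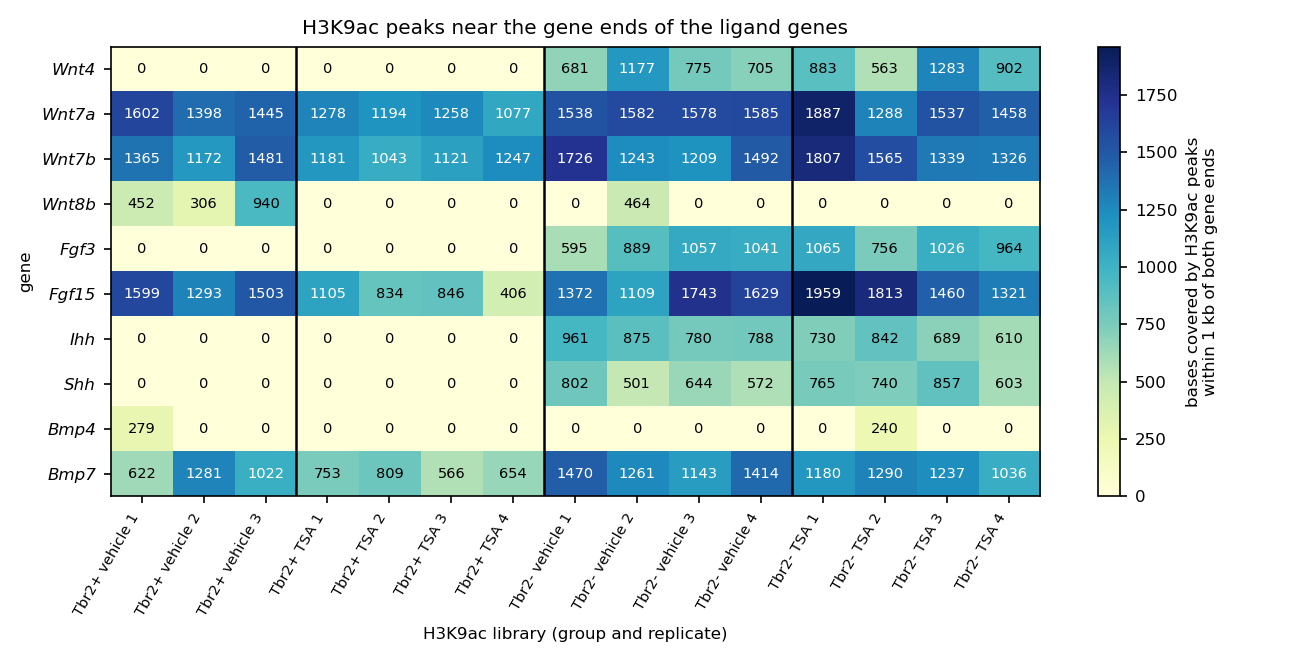
Bases covered by H3K9ac peaks within 1 kb of the gene ends (both ends summed) for the 10 ligand genes (rows) in each of 15 H3K9ac libraries (columns, grouped by population and treatment; black lines part the groups). Wnt4, Fgf3, Ihh and Shh are at 0 in all 7 Tbr2+ libraries and above 500 bases in all 8 Tbr2- libraries, while Wnt7a, Wnt7b, Fgf15 and Bmp7 are covered everywhere.

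The stretches before the annotated starts are shown because the population-specific peaks sit beside them. RefSeq promoters on GRCm38.p6 (mm10) matched 6 of the 10 genes; Wnt7b, Fgf15, Shh and Bmp7 have no entry in that table. Below are the 250 bases that precede the start of the 3 genes acetylated in Tbr2- nuclei and, for contrast, of Wnt8b, 5′ to 3′ on the gene's strand with CpG dinucleotides in capitals. Fgf3 lies on the plus strand at chr7:144838362-144838611, Wnt4 on the plus strand at chr4:137277385-137277634, Ihh on the minus strand at chr1:74951673-74951922 and Wnt8b on the plus strand at chr19:44493222-44493471.
Fgf3: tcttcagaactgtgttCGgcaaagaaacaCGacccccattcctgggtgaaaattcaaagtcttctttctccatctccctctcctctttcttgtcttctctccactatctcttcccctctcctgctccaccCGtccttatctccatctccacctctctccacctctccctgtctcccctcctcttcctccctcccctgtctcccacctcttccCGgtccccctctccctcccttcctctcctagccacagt
Wnt4: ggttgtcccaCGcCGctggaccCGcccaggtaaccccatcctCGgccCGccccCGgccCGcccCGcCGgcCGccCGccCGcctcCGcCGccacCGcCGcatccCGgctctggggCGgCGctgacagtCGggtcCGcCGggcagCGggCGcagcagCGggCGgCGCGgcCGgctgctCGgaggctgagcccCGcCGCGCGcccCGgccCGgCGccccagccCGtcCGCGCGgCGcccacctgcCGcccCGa
Ihh: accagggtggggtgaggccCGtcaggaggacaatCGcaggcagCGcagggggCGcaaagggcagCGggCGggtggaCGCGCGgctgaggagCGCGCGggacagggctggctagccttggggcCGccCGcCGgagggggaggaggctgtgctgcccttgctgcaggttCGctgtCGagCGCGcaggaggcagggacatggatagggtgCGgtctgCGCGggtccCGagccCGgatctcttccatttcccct
Wnt8b: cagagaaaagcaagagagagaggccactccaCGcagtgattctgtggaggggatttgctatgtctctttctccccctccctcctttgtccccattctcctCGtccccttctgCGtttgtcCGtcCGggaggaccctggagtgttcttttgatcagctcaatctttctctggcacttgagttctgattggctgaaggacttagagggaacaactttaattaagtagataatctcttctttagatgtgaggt

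CpG counts differed widely among the 6. Over the 300-base window that adds the first 50 transcribed bases, Wnt4 had 51 CpGs, Wnt7a 42, Ihh 30, Fgf3 14, Bmp4 12 and Wnt8b 6, against a median of 7 over 32851 promoters. Fgf3, with start peaks in the 8 Tbr2- libraries, and Bmp4, with a start peak in 2 of 15 libraries, thus had similar counts. The GC box GGGCGG, read on both strands as were all motifs, was present in Wnt4 (8 matches), Wnt7a (6), Ihh (2) and Bmp4 (1) and in 35.7% of all promoters. The GLI core GGGTGGT was in Wnt8b alone of the 6, and in 4.61% of all promoters. None of the 6 windows held the T-box core GGTGTGA, the TCF/LEF core CTTTGAT, the E-box CAGATG or TATAAA, which 3.98%, 3.73%, 17.2% and 13.6% of promoters held.

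Fgf3, a secreted Fgf best known from the inner ear and midline, spans chr7:144838612-144843348. Its start side was covered over 595, 889, 1057 and 1041 bases in Tbr2- vehicle libraries 1 to 4 and over 1065, 756, 1026 and 964 bases in the Tbr2- TSA libraries, with no peak in any Tbr2+ library. The strongest peak reached 6.08 to 7.50-fold enrichment with vehicle in the authors' peak calls, and its summit lay 160 to 737 bp after the start. No peak fell in the remaining 2735 bp of the gene body in any of the 15 libraries.

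Wnt4, a Wnt with roles in kidney and gonad and reported in developing brain, spans chr4:137277635-137299501. It was covered over 681 to 1177 bases with vehicle and 563 to 1283 bases with TSA in Tbr2- libraries, with summits 332 to 662 and 364 to 545 bp after the start. The Tbr2- vehicle libraries ranged from 7.50 to 9.22-fold enrichment at the strongest peak. Inside the Wnt4 body, away from the ends, small peaks were present in both populations, in 2 of 3 Tbr2+ vehicle and 3 of 4 Tbr2- vehicle libraries.

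Ihh, the hedgehog ligand known from growth plate cartilage, spans chr1:74945315-74951672. Covered bases ranged from 780 to 961 in Tbr2- vehicle and from 610 to 842 in Tbr2- TSA libraries, in 6 of the 8 libraries as 3 or 4 short peaks. The strongest peak reached 5.30 to 6.08-fold enrichment with vehicle in the authors' calls, at or below the range of Fgf3. With only the 30000 strongest peaks of each library, 3 of 4 Tbr2- TSA libraries kept a gene-end peak at Ihh. The body held peaks in 8 of 8 Tbr2- libraries and also in 2 of 3 Tbr2+ vehicle and 1 of 4 Tbr2+ TSA libraries.

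Shh, the hedgehog ligand of the ventral neural tube, was not named as picked on acetylation, and its peaks had the same split. The members were chosen with earlier results of these data known, so the exact test of Shh below is not independent support. The end of Shh at the higher coordinate (chr5:28456840-28467101) was covered over 802, 501, 644 and 572 bases in Tbr2- vehicle libraries and 765, 740, 857 and 603 bases in Tbr2- TSA libraries, and over 0 in all Tbr2+ libraries. The body repeated it: 1723 to 2325 bases with vehicle and 1103 to 2539 with TSA in Tbr2- libraries, and none in the 7 Tbr2+ libraries. A gene-body peak in every Tbr2- and no Tbr2+ library occurred in 0.558% of longer protein-coding genes with vehicle and 3.3% with TSA. Fisher's exact test on library counts (two-sided) gave p = 0.0286 for Shh in each treatment, the smallest that 3 against 4 or 4 against 4 libraries allow. After Benjamini-Hochberg adjustment over the 4811 and 4519 genes with a peak in some but not all libraries, the exact test gave 0.838 and 0.340, and no gene passed 0.05.

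Bmp4 and Wnt8b differed between their ends and bodies. Bmp4, a dorsal midline and choroid plexus signal, had a start peak in 1 of 3 Tbr2+ vehicle libraries (279 bases) and 1 of 4 Tbr2- TSA libraries (240 bases). Its body, chr14:46383525-46390669 without the outer 1 kb, held 738 to 1444 bases of peaks in the 4 Tbr2- vehicle libraries and 771 to 920 in the 4 Tbr2- TSA libraries. Tbr2+ libraries had 0, 232 and 0 with vehicle and 0 in all 4 with TSA. With TSA, 3.3% of longer protein-coding genes had a gene-body peak in every Tbr2- and no Tbr2+ library. With vehicle Bmp4 did not meet that rule, and no share of genes was computed for its split. Wnt8b, a Wnt of the medial pallium and hippocampal primordium, had gene-end peaks in 3 of 3 Tbr2+ vehicle libraries, covering 166, 306 and 750 bases at the far end and 286, 0 and 190 bases at the start, and 0 of 4 Tbr2+ TSA libraries. Tbr2- libraries had them in 1 of 4 with vehicle (326 bases at the far end and 138 at the start) and 0 of 4 with TSA. Wnt8b peaks were weak, 3.01 to 5.09-fold, and much of the cover lay at the far end of the gene, 2684 bp from the gene Sec31b. Inside its body all 8 Tbr2- libraries had 1 peak, as did 2 of 3 Tbr2+ vehicle and 1 of 4 Tbr2+ TSA libraries.

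**Figure D2:**
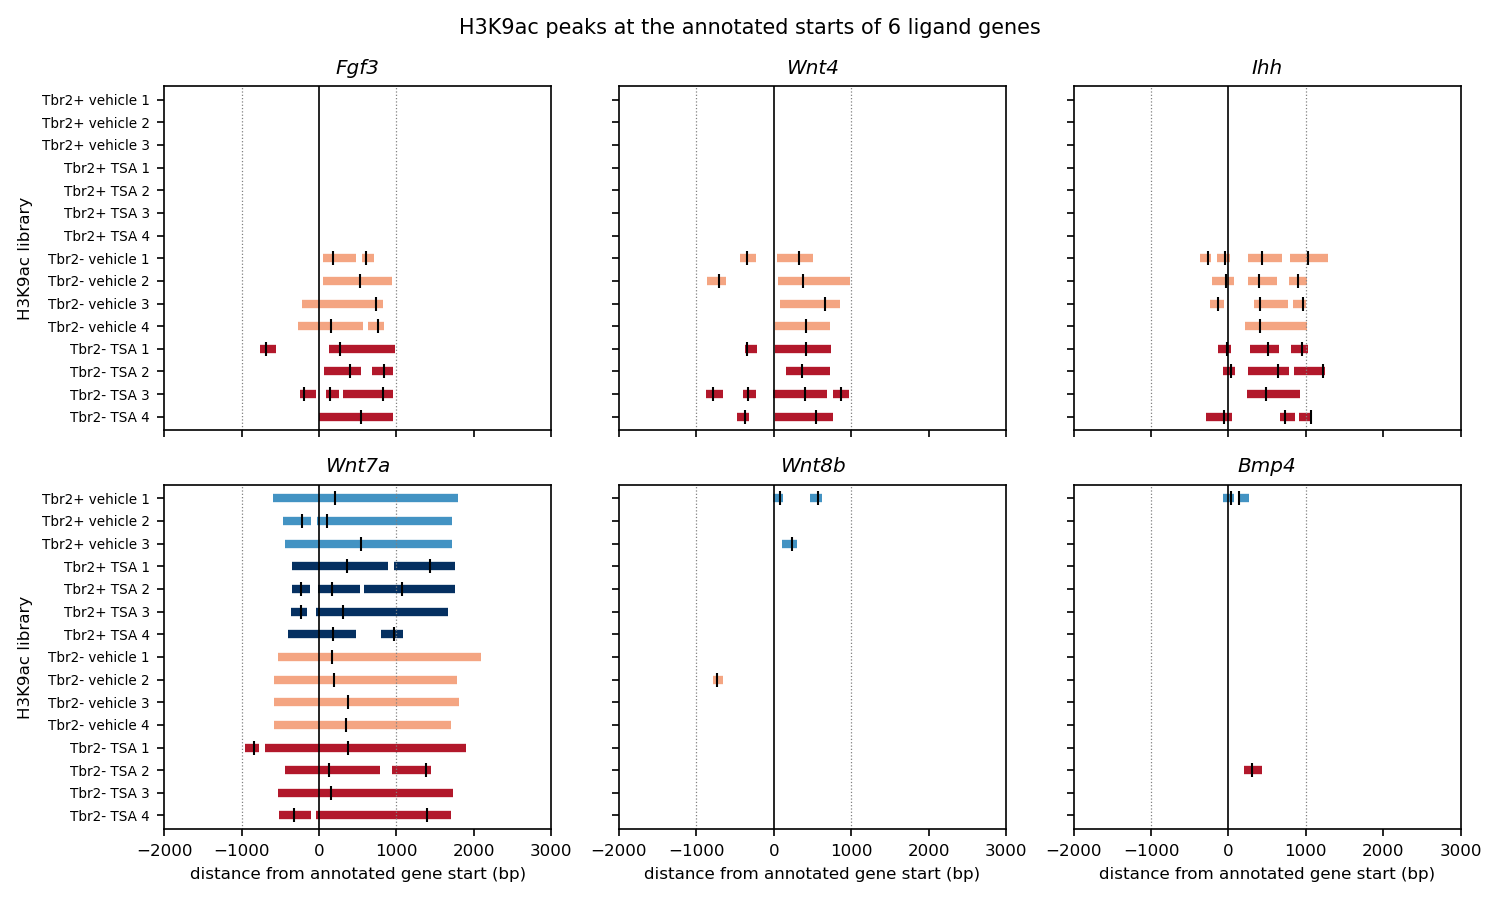
H3K9ac peaks of each library (rows) against distance from the annotated start in bp (negative is before the start; dotted lines at 1 kb) for the 6 ligand genes whose strand is known; bars are peaks coloured by group and ticks are summits. Only peaks that reach within 1 kb of the start are drawn, so other peaks inside the genes are not shown. Of the peaks drawn, those of Fgf3, Wnt4 and Ihh are in Tbr2- rows only, before and after the start. Wnt7a has them in all 15 rows, and Wnt8b and Bmp4 in 3 and 2 rows.

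Between treatments, Wnt8b was the 1 gene of the 10 with a gene-end peak in every library of one group and none of the other in Tbr2+ nuclei: present with vehicle, absent with TSA. Of protein-coding genes, 1.06% were apart in this way in either direction and 1.05% in that of Wnt8b, and the Tbr2+ TSA libraries had the fewest peaks of all groups, as given above. Fisher's exact test gave p = 0.0286 for Wnt8b, 0.404 after adjustment over 4605 genes. The call ended when the start alone was read or when each library was held to its 30000 strongest peaks. In Tbr2- nuclei none of the 10 genes was apart between treatments, with 0.0378% of genes apart.

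The 4 genes acetylated in all libraries were compared by the bases covered at both ends together. With vehicle, the covered bases of Wnt7a, Wnt7b, Fgf15 and Bmp7 overlapped between populations, while 16.3% of the 11745 genes with a peak in all libraries were lower in every Tbr2+ library. The strongest peak of Wnt7a reached 8.64 to 11.7-fold in Tbr2+ vehicle and 15.4 to 18.4-fold in Tbr2- vehicle libraries in the authors' calls. Fgf15 (8.69 to 9.26 against 10.2 to 13.7-fold) and Bmp7 (4.68 to 5.73 against 7.31 to 9.89-fold) were also lower in every Tbr2+ library, and Wnt7b overlapped. By this measure 18.5% of the 11745 genes were lower in every Tbr2+ library. Within the body of Wnt7b, peaks covered 2535 to 2785 bases in Tbr2+ vehicle and 4522 to 5131 bases in Tbr2- vehicle libraries, and 15.3% of the 5869 genes with a peak in the body in all libraries were lower in the same way. With TSA all 4 were lower in every Tbr2+ library than in any Tbr2- library; 29.7% of the 11745 genes were. Fgf15 had the lowest ratio of the 4: Tbr2+ TSA libraries had 1105, 834, 846 and 406 bases against 1293 to 1599 with vehicle, a ratio of means of 0.545 where the median over those genes was 0.867. The Tbr2- TSA libraries had 1321 to 1959 bases at Fgf15, overlapping the 1109 to 1743 of Tbr2- vehicle. Wnt7a was also lower in every Tbr2+ TSA library (1077 to 1278 bases) than in any Tbr2+ vehicle library (1398 to 1602), and 34.5% of genes were. Wnt7b and Bmp7 overlapped between treatments in both populations. In Tbr2- nuclei none of the 4 was lower with TSA without overlap, and 3.57% of genes were.

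RNA of 6 ligand genes was lower in every Tbr2+ vehicle library than in any Tbr2- vehicle library, where 21.3% of tested genes were: Wnt4, Wnt7a, Wnt7b, Fgf3, Fgf15 and Shh. Ihh alone was higher without overlap (background 18.4%), and Wnt8b, Bmp4 and Bmp7 overlapped. Of the 7 genes not picked on acetylation, 6 passed the filter on low counts and Bmp4 did not; edgeR's quasi-likelihood test with Benjamini-Hochberg adjustment called 3 of the 6, Wnt7a, Fgf15 and Wnt7b, all lower in Tbr2+ nuclei. Of the 20078 genes tested, 11.5% were lower and 9.96% higher. In bulk nuclei, fewer cells of a type and less RNA per cell cannot be told apart.

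**Figure D3:**
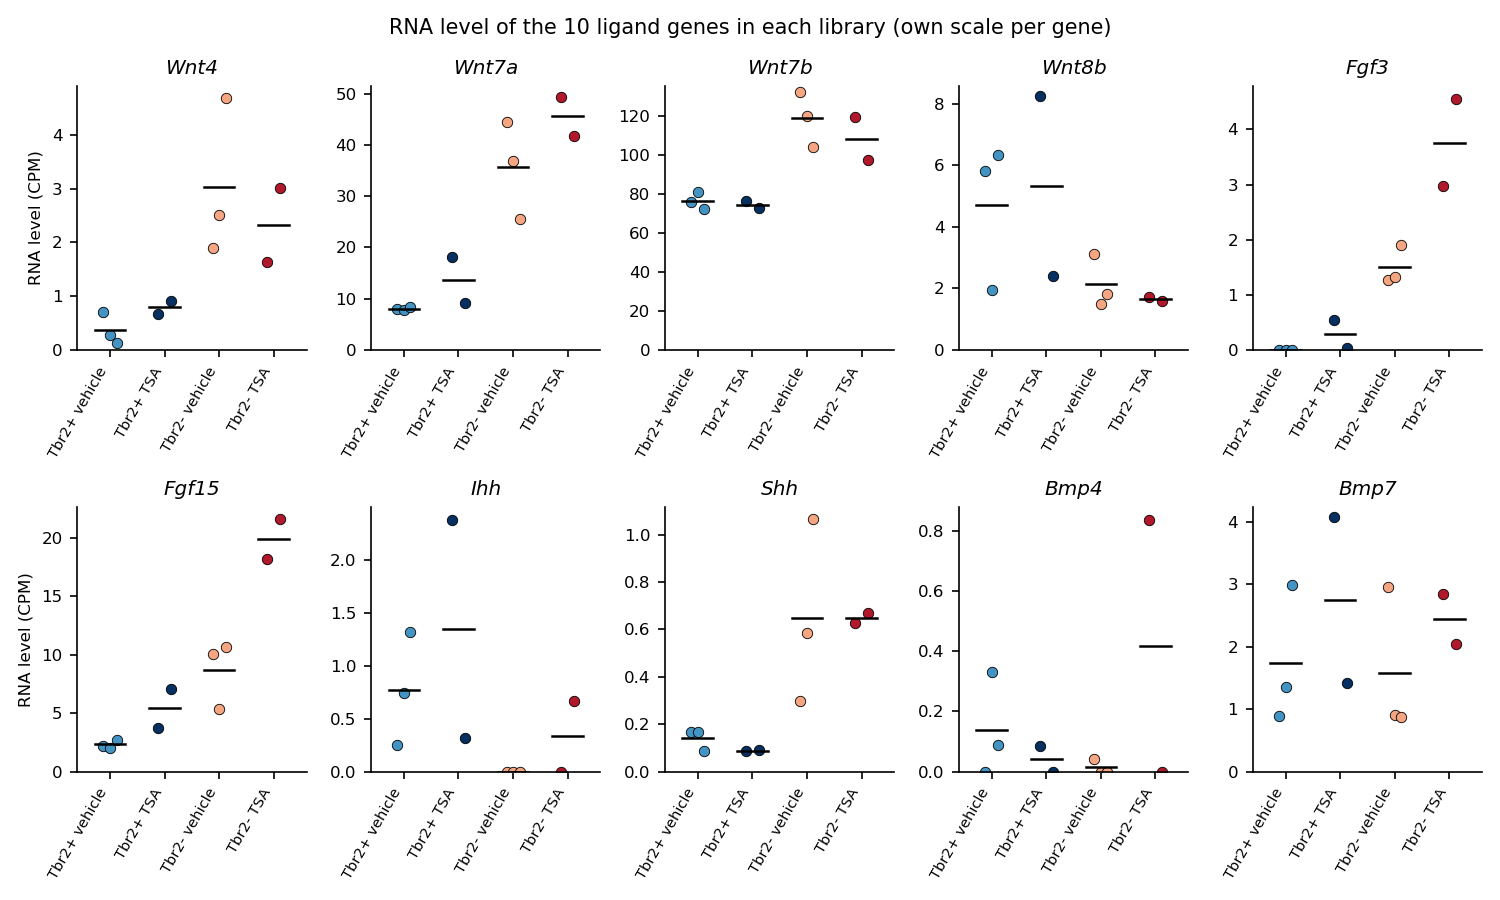
RNA level in CPM (y axis, from 0, own scale per gene) of the 10 ligand genes in each library (points) of the 4 groups (x axis), with group means as bars. Wnt7a, Wnt7b and Fgf15 sit higher in all Tbr2- vehicle libraries than in all Tbr2+ vehicle libraries, Fgf3 is at 0 in the 3 Tbr2+ vehicle libraries, and Ihh is at 0 in the 3 Tbr2- vehicle libraries.

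Wnt7a (chr6:91363981-91411353) had 8.05, 7.79 and 8.45 CPM in Tbr2+ vehicle and 44.5, 36.8 and 25.6 CPM in Tbr2- vehicle libraries. With TSA edgeR called 2 of the 6, Wnt7a and Fgf15, while 9.32% of all genes were called and 5.13% called lower. Wnt7a then had 18.1 and 9.21 CPM in Tbr2+ and 49.4 and 41.8 CPM in Tbr2- libraries. The lowest Tbr2- library thus lay above the highest Tbr2+ library. Its log2 fold change, Tbr2+ over Tbr2-, was -2.14 ± 0.28 (SE) with vehicle (edgeR adjusted p = 0.00015) and -1.74 ± 0.33 with TSA (edgeR adjusted p = 0.00599). Leaving out Tbr2- TSA library 1 ended the TSA call, with an edgeR adjusted p of 0.0530.

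Wnt7b (chr15:85535437-85581821), the close relative of Wnt7a, had the smallest of the 3 called differences: 72.5 to 81.3 CPM in Tbr2+ vehicle and 104 to 132 CPM in Tbr2- vehicle. The log2 fold change was -0.64 ± 0.14 (edgeR adjusted p = 0.00641). With TSA the values were 76.2 and 73.0 CPM against 120 and 97.5 CPM, again without overlap, and the log2 fold change of -0.54 ± 0.18 did not pass (edgeR adjusted p = 0.0741), while DESeq2 called it (-0.52, adjusted p = 0.0370).

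Fgf15 (chr7:144896532-144900953), the mouse counterpart of human FGF19, had 2.19, 2.06 and 2.73 CPM in Tbr2+ vehicle and 10.1, 5.33 and 10.7 CPM in Tbr2- vehicle libraries, a log2 fold change of -1.90 ± 0.37 (edgeR adjusted p = 0.00245). With TSA it had 3.69 and 7.11 CPM in Tbr2+ and 18.2 and 21.6 CPM in Tbr2- libraries, and the log2 fold change was -1.88 ± 0.44 (edgeR adjusted p = 0.0176). Leaving out Tbr2+ TSA library 1 or either Tbr2- TSA library ended that TSA call, with edgeR adjusted p of 0.128, 0.0735 and 0.0942. Fgf15 overlaps the annotated gene Gm26793, which had 8.76 to 14.9 CPM in Tbr2+ vehicle and 16.0 to 18.2 CPM in Tbr2- vehicle libraries; the library kit does not mark strand, so reads of the pair cannot be told apart where they overlap.

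Shh was near the limit of detection in Tbr2+ nuclei, with 2 to 4 counts per vehicle library (0.0880 to 0.169 CPM), and had 7, 11 and 23 counts (0.296 to 1.07 CPM) in Tbr2- vehicle libraries. The difference did not pass with vehicle (log2 fold change -2.16 ± 1.05, edgeR adjusted p = 0.174) or with TSA (-2.81 ± 1.34, edgeR adjusted p = 0.234), though libraries did not overlap in either. Wnt8b had 5.81, 1.94 and 6.34 CPM in Tbr2+ vehicle against 3.13, 1.49 and 1.81 CPM in Tbr2- vehicle libraries, which overlapped. With TSA it had 8.24 and 2.42 CPM against 1.71 and 1.59 CPM, which did not overlap, as for 23.6% of genes in that direction. Its log2 fold change was 1.13 ± 0.58 with vehicle (edgeR adjusted p = 0.197) and 1.69 ± 0.72 with TSA (edgeR adjusted p = 0.176). Bmp7 had 0.885 to 2.99 CPM in Tbr2+ and 0.880 to 2.96 CPM in Tbr2- vehicle libraries, with a log2 fold change of 0.14 ± 0.69 (edgeR adjusted p = 0.920). Bmp4 had 0, 8 and 2 counts in Tbr2+ vehicle, 2 and 0 in Tbr2+ TSA, 1, 0 and 0 in Tbr2- vehicle and 20 and 0 in Tbr2- TSA libraries, so 1 library held most of its counts.

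The RNA of the 3 genes picked on acetylation went both ways and is described without a test. Fgf3 had no count in the 3 Tbr2+ vehicle libraries and 30, 25 and 41 counts (1.27 to 1.90 CPM) in the Tbr2- vehicle libraries, at least 11.8-fold lower in Tbr2+ nuclei against a floor of 3 counts per library. Wnt4 had 0.716, 0.288 and 0.132 CPM against 1.90, 2.50 and 4.68 CPM, a log2 fold change of -2.98 ± 0.73. For both, the population with the start peaks had more RNA. Ihh was the reverse: 6, 18 and 30 counts (0.253 to 1.32 CPM) in Tbr2+ vehicle libraries, where its ends held no peak, and none in the 3 Tbr2- vehicle libraries, where they did, at least 5.44-fold higher in Tbr2+ nuclei against the same floor. With TSA, Ihh had 56 and 7 counts in Tbr2+ and 0 and 16 counts in Tbr2- libraries, which overlapped. Fgf3 with TSA had 13 and 1 counts against 71 and 109, and Wnt4 0.679 and 0.911 CPM against 1.63 and 3.01 CPM, both lower in Tbr2+ nuclei without overlap, as for 27.3% of genes. Wnt7a, Wnt7b, Fgf15 and Shh made up the 6 that were lower without overlap with TSA.

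TSA against vehicle gave no call for any of the 9 tested ligand genes in either population. In Tbr2+ nuclei edgeR called 0 genes in all (background 0%), with 3175 at an unadjusted p under 0.05 and 1060 called by DESeq2; in Tbr2- nuclei edgeR called 236 (1.18%), a count that ran from 0 to 677 when 1 library was left out and was 0 without Tbr2+ vehicle 2, Tbr2- vehicle 1 or 3, or either Tbr2- TSA library. Fgf15 was higher in every TSA library than in any vehicle library of its population, without passing the test: 2.06 to 2.73 CPM with vehicle and 3.69 and 7.11 CPM with TSA in Tbr2+ nuclei (log2 fold change 1.21 ± 0.40, edgeR adjusted p = 0.170), and 5.33 to 10.7 CPM against 18.2 and 21.6 CPM in Tbr2- nuclei (1.19 ± 0.38, edgeR adjusted p = 0.106). Of all genes, 15.9% and 19.7% were higher without overlap in Tbr2+ and Tbr2- nuclei, and DESeq2 called Fgf15 in Tbr2- nuclei (adjusted p = 0.0261). In Tbr2+ nuclei the covered bases at Fgf15 were lower with TSA while its RNA was higher. In Tbr2- nuclei the summed level of 13 markers of ventrally derived interneurons was also higher with TSA (1677 to 1838 CPM against 864 to 1086 CPM). So were the sums of neuronal markers (9360 to 10201 against 7802 to 9274 CPM) and oligodendrocyte precursor markers (69.9 to 70.5 against 40.8 to 66.3 CPM). In Tbr2+ nuclei, sums with TSA were also higher for neuronal markers (5827 to 6104 against 4572 to 5436 CPM) and oligodendrocyte precursor markers (19.4 to 20.2 against 6.82 to 13.6 CPM). Interneuron sums overlapped there (288 to 307 against 143 to 297 CPM). The part of these cell types in the Fgf15 and Fgf3 levels was not tested.

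Fgf3, 53183 bp from Fgf15 on the same chromosome, was also higher without overlap. In Tbr2- nuclei it had 1.27 to 1.90 CPM with vehicle and 2.97 and 4.56 CPM with TSA (log2 fold change 1.32 ± 0.85, edgeR adjusted p = 0.415). In Tbr2+ nuclei it had 13 and 1 counts with TSA, against none with vehicle. Library 2 lay below the floor of 3 counts, so the difference rests on library 1 and no bound on the fold change is given. The edgeR adjusted p was 0.110, and DESeq2 (adjusted p = 0.0171) and edgeR without the filter on low counts (adjusted p = 0.0490) called it. Wnt7a was higher without overlap in Tbr2+ nuclei only, at 7.79 to 8.45 CPM with vehicle and 9.21 and 18.1 CPM with TSA (log2 fold change 0.75 ± 0.30, edgeR adjusted p = 0.238). The other genes overlapped between treatments in both populations. In Tbr2+ nuclei their log2 fold changes ran from -0.65 ± 1.24 for Shh to 1.06 ± 0.77 for Wnt4, and Wnt7b, the most abundant in counts, had -0.04 ± 0.16. In Tbr2- nuclei Ihh was found in 1 of 2 TSA libraries (16 counts) and in none with vehicle. The test of a difference in TSA effect between populations called none of the 9 (edgeR adjusted p of 0.895 or more) and 0 genes in all (background 0%), with 1103 at an unadjusted p under 0.05 and 12 called by DESeq2.

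The stretch between Fgf3 and Fgf15, 51183 bp without the 1 kb at each gene, held peaks in every library. Covered bases were 1262 to 1417 in Tbr2+ vehicle, 200 to 845 in Tbr2+ TSA, 679 to 1324 in Tbr2- vehicle and 628 to 1213 in Tbr2- TSA libraries. Tbr2+ TSA libraries lay fully below Tbr2+ vehicle libraries here, while the Tbr2- groups overlapped. The Tbr2+ TSA libraries had the fewest peaks of all groups, and no share over other stretches between genes was computed. At gene ends, 34.5% of the 11745 genes with a peak in all libraries were lower in every Tbr2+ TSA library.

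Other genes of the ligand families were read from lists of family members. Of 15 other Wnt genes, 4 reached 2 CPM as the mean of some group: Wnt3, Wnt5a, Wnt5b and Wnt10a. Wnt5a, a ligand of the non-canonical branch, was higher in Tbr2+ vehicle nuclei at 87.4 ± 28.9 CPM (SD, n = 3) than in Tbr2- vehicle nuclei at 24.9 ± 5.65 CPM (SD, n = 3), a log2 fold change of 1.81 ± 0.30 (edgeR adjusted p = 0.000830). Wnt10a had no count in the Tbr2- vehicle libraries and 0.577 to 3.03 CPM in Tbr2+ vehicle, at least 10.5-fold higher (edgeR adjusted p = 0.00590). Wnt3, at 2.89 CPM in Tbr2+ and 6.38 CPM in Tbr2- vehicle nuclei, and Wnt5b, at 4.82 and 5.29 CPM, were not called. In all, 2 of 9 tested Wnt genes outside the 10 were higher and 0 lower in Tbr2+ nuclei, with a median log2 fold change of -1.14, the value of Wnt3, against -0.05 over all genes. With TSA that median was 1.25, the value of Wnt5a, against -0.02 over all genes.

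Of 20 other Fgf genes, 9 reached 2 CPM (Fgf5, Fgf7, Fgf9, Fgf10, Fgf11, Fgf12, Fgf13, Fgf14 and Fgf18). None of 13 tested was called higher and 3 lower, Fgf12 (-1.49 ± 0.25), Fgf14 (-1.64 ± 0.28) and Fgf13 (-0.77 ± 0.23), which are intracellular Fgfs that bind sodium channels rather than act as secreted ligands (log2 fold changes ± SE, as for all genes below). Fgf11, of the same subfamily, had 9.23 to 21.0 CPM in Tbr2+ and 18.2 to 20.3 CPM in Tbr2- vehicle libraries and was not called. The Fgf13 call was lost when any of 4 libraries was left out. Of 18 other Bmp, Gdf and activin genes, 8 reached 2 CPM (Bmp1, Bmp2, Bmp3, Gdf5, Gdf10, Gdf11, Inhba and Inhbb). Despite its name, Bmp1 is a protease rather than a ligand. The activin subunit Inhbb was higher in Tbr2+ nuclei (1.62 ± 0.20), and Gdf10 (-2.28 ± 0.40), Inhba (-2.66 ± 0.63) and Bmp3 (-1.79 ± 0.51) were among 4 of 10 tested that were lower. Bmp3 was lost without either of 2 Tbr2- vehicle libraries (2 and 3), and Inhba without the filter on low counts.

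Genes that receive or modify the signals were read in the same fit. The lists had median log2 fold changes of 0.40 (Wnt receptors and secretion), 0.34 (Wnt effectors and targets), -0.37 (Wnt inhibitors and modulators), -0.77 (other Fgf genes), -0.72 (Fgf receptors and targets), 0.47 (hedgehog), -0.46 (other Bmp family), -0.23 (Bmp receptors and targets) and -0.64 (Bmp inhibitors). With the other ligands they made up 10 lists of 183 genes, of which 154 were tested, 26 were higher and 27 lower in Tbr2+ vehicle nuclei; over all genes 9.96% were higher and 11.5% lower, the background for each list below. Among Wnt receptors and secretion genes, 5 of 20 were higher and 0 lower, among them the receptors Fzd2 (1.76 ± 0.25), Fzd3 (1.22 ± 0.20) and the co-receptor Ptk7. Among Wnt effectors and targets, 6 of 17 were higher and 3 lower: the factor Tcf7l2 (2.63 ± 0.35), the feedback inhibitor Nkd1 (2.08 ± 0.29) and the inhibitor Apcdd1 (2.49 ± 0.44) were higher, and the Nkd1 relative Nkd2 (-1.99 ± 0.29), Myc (-1.18 ± 0.26) and Apc (-0.57 ± 0.14) were lower. Wnt inhibitors and modulators gave 0 higher and 2 lower of 17, the R-spondin receptor Lgr4 (-2.43 ± 0.35) and Sfrp4 (-1.25 ± 0.41), the latter lost when any of 7 libraries was left out.

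Fgf receptors and targets gave 2 higher and 5 lower of 21. Fgfr3 (0.96 ± 0.20) and Flrt1 (1.99 ± 0.24) were higher, and the feedback genes Dusp6 (-1.60 ± 0.27) and Spry2 (-1.63 ± 0.31) and Flrt2 (-2.27 ± 0.16) were lower. Of 18 tested hedgehog pathway genes 7 were higher, with the factors Gli2 (2.08 ± 0.30) and Gli3 (1.42 ± 0.21) and their inhibitor Sufu (1.62 ± 0.21), and 3 lower, the receptor and target Ptch1 (-0.84 ± 0.23) and the secreted Scube1 (-1.77 ± 0.20) and Scube3 (-2.19 ± 0.35). The Ptch1 call was lost when any of 4 libraries was left out. Of 19 Bmp receptors and targets, Bmpr1a (0.94 ± 0.20) was the 1 higher, and 6 were lower, among them the receptor Acvr1 (-1.58 ± 0.16), the target Id4 (-1.12 ± 0.18) and Rgma (-1.65 ± 0.30). Bmp inhibitors were split, with Bmper (1.69 ± 0.27) and Twsg1 (0.87 ± 0.18) higher and Nog (-1.38 ± 0.34) lower of 10. Between populations with TSA, 6 of the 18 hedgehog genes were higher and 2 lower, and 0 of the 19 Bmp receptors and targets were higher and 4 lower, where 4.19% of all genes were higher and 5.13% lower. With TSA against vehicle, edgeR called 0 of the 154 in either population, at the backgrounds given above.

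**Figure D4:**
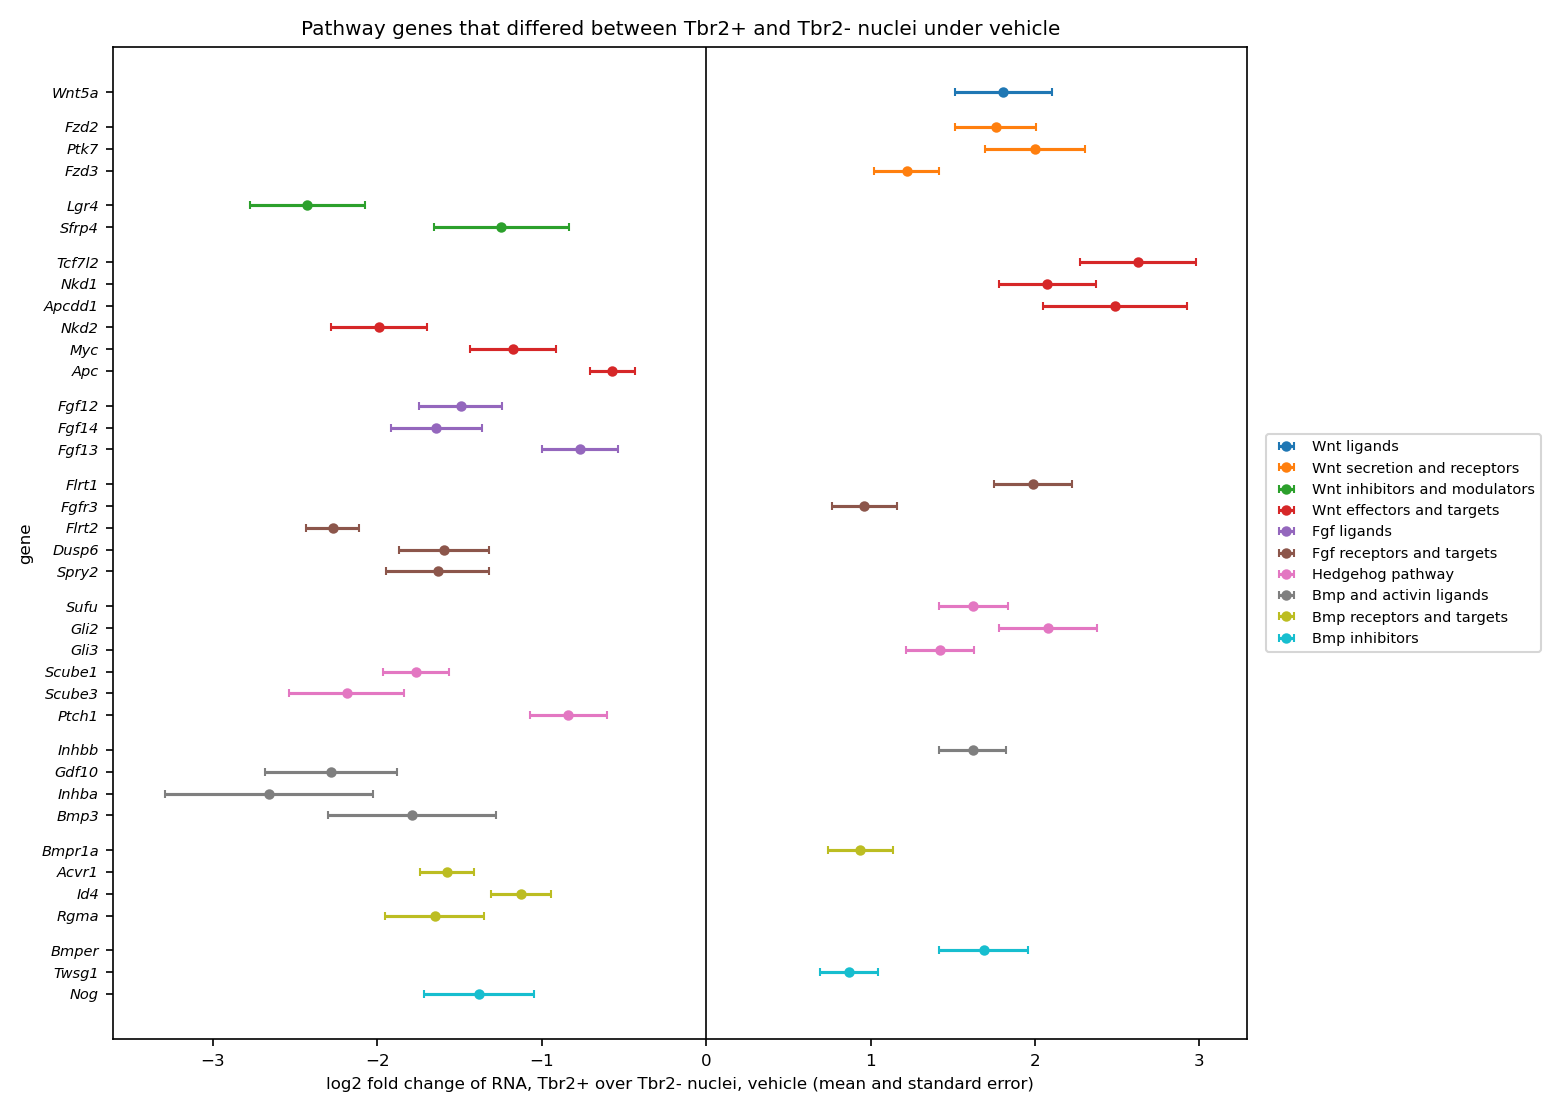
Log2 fold change of RNA, Tbr2+ over Tbr2- nuclei with vehicle (x axis; points with standard errors from edgeR), of 37 pathway genes named by rank of adjusted p among those that passed, coloured by list; Wnt10a, at 0 counts in Tbr2- vehicle libraries, is left out. The points show 16 genes higher in Tbr2+ nuclei, such as Tcf7l2, Gli2 and Fzd2, and 21 lower, such as Flrt2, Lgr4 and Acvr1.

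Markers of other cell types differed between the populations. Of 13 markers of ventrally derived interneurons, 12 were lower in Tbr2+ vehicle nuclei; their summed level was 143 to 297 CPM in Tbr2+ vehicle, 288 to 307 in Tbr2+ TSA, 864 to 1086 in Tbr2- vehicle and 1677 to 1838 in Tbr2- TSA libraries, with none of the 13 at 0 in any group. Oligodendrocyte precursor markers were lower in 5 of 6. Their sums were 6.82 to 13.6, 19.4 to 20.2, 40.8 to 66.3 and 69.9 to 70.5 CPM, in the same order. Neuronal marker sums were 4572 to 5436, 5827 to 6104, 7802 to 9274 and 9360 to 10201 CPM, again in that order. Radial glial sums were 1618 to 1915, 1725 to 1842, 1968 to 2018 and 1912 to 2037 CPM. By sum, interneuron, oligodendrocyte precursor, neuronal and radial glial markers thus were higher in Tbr2- than in Tbr2+ libraries of the same treatment. Wnt4, Wnt7a, Wnt7b, Fgf3, Fgf15 and Shh were higher in Tbr2- libraries too. Single radial glial markers that were called went mostly the other way, as given below. The part of any of these cell types in the ligand levels was not tested. Cortical hem and choroid plexus markers were called in 0 of 11 tested, with sums of 31.9 to 85.1, 43.6 to 85.2, 66.0 to 86.1 and 66.6 to 82.6 CPM that overlapped between all groups; Lmx1b had no count in 3 of the 4 groups. Microglial markers gave 2 lower of 8, with sums of 17.8 to 29.4, 16.0 to 20.3, 28.2 to 56.9 and 44.6 to 61.2 CPM. Meningeal and vascular markers gave 1 lower of 13, with sums of 27.4 to 55.8, 34.6 to 37.1, 41.7 to 68.8 and 40.3 to 47.3 CPM. Basal progenitor markers were higher in 10 of 10, radial glial markers in 5 of 15 with 1 lower, and neuronal markers in 1 of 13 with 9 lower in Tbr2+ vehicle nuclei.

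Across the 10 RNA libraries the genes with the most similar profile were found by Pearson's r of log2(CPM + 0.5), as a description over libraries that share the split by population. For Wnt7a they were Coro1a (r = 0.99), Erbb4 (0.98) and Maf (0.98), Erbb4 and Maf being 2 of the interneuron markers. For Wnt7b they included Pik3cd (0.97) and Fasn (0.96). For Fgf15 they were Rp9 (0.95), Evl (0.95) and Klc1 (0.95), for Wnt8b Phf7 (0.94), Zmpste24 (0.92) and Thap2 (0.92), and for Bmp7 Naxd (0.88), Map2k2 (0.87) and Ddx49 (0.85). Among the 10 themselves, Wnt7a and Fgf3 had r = 0.94, Wnt7a and Wnt7b 0.89, Fgf3 and Fgf15 0.89, and Wnt4 and Shh 0.90.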

How the data were processed

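RNA-seq and H3K9ac ChIP-seq were read from the authors' per-library files. The members and lists were chosen with earlier results of these data known. Whole-number read counts per gene, not normalized, were deposited by the authors; the sources used here name neither aligner nor counting tool, and the library kit does not mark strand. Peaks on mm10 were called per library with MACS 2.1.0.20140616 against 1 input per group at a q threshold of 0.1, per the file headers, with SAMtools also in the submitters' processing notes. Peak files hold pileup signal, −log10 p and q and fold enrichment per the file headers.

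Genes passing filterByExpr (20078) were fitted with edgeR 4.0.16 (quasi-likelihood, robust, TMM, R 4.3.3) over all 10 RNA libraries, 1 mean per group, with Benjamini-Hochberg adjustment at 0.05. CPM are TMM-scaled. On simulated counts for the vehicle comparison (18873 genes, 200 changed), the fit recovered 36.6% of genes changed by 1 and 99.0% of those changed by 2 on the log2 scale. The simulation gave every gene a dispersion (squared coefficient of variation between libraries) of 0.05. The real libraries varied more, with a common coefficient of variation of 0.374, so these rates are too high for the real data. Symbols matched 48349 of 48709 identifiers. Gene positions and promoters come from RefSeq (GRCm38.p6). A gene end counted as acetylated when a peak lay within 1 kb; RefSeq protein-coding genes (21156) gave the background. Named pathway genes were taken from each list by adjusted p among genes that passed in each direction. Genes most alike were sought among 10822 genes. Some genes are not reported here.

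Same-numbered Tbr2+ and Tbr2- vehicle libraries deviated together (r of 0.152, 0.121 and 0.132), so the titles' numbers may pair them. Same-numbered Tbr2+ and Tbr2- TSA libraries had r of 0.179, where the other pairing must give the opposite sign. The main fit did not use pairing by number, which entered only in the replicate block. That block also joined vehicle and TSA libraries of the same number, so a pairing within each treatment was not fitted. Alternatives were DESeq2 1.42.0, other size factors, no filter, a replicate block, 2-group fits, other windows and peak cutoffs, and each library left out. For the 3 genes picked on acetylation, comparisons of populations carry no test. The floor of 3 counts covers counting error only.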

Additional observations from a re-analysis of the deposited data

Results flagged for a closer look

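Dixon's test at the 95% level was applied to the bases covered by H3K9ac peaks at 1 end of each ligand gene, the end with more peaks, in the 30 groups of 4 libraries, and 3 held a library apart from the others. The usual rate by chance, about 1 in 20 groups, does not apply where most libraries are at 0, as for Bmp4 and Wnt8b, since any value above 0 then stands apart. At the higher-coordinate end of Bmp4, its start, Tbr2- TSA library 2 had 240 covered bases and the other 3 libraries had 0. At the far end of Wnt8b, Tbr2- vehicle library 2 had 326 covered bases and the other 3 had 0; without that library, Wnt8b would have had gene-end peaks in every Tbr2+ vehicle library and no Tbr2- vehicle library. At the start of Wnt7a, Tbr2- vehicle library 1 had 1538 covered bases and the others 1578 to 1585, a gap that is large only against the narrow spread of those 3.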

How the results depend on the processing

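Wnt7a, Fgf15 and Wnt7b were called lower in Tbr2+ vehicle nuclei under all 15 alternatives run for that comparison. Leaving out each library in turn gave 3186 to 4495 genes in that comparison (3 to 3 of the ligand genes), 683 to 1953 with TSA (0 to 2), 0 to 39 for TSA in Tbr2+ nuclei and 0 to 677 in Tbr2- nuclei (0 to 0 each), and 0 to 0 for the interaction. The count of 683 came without Tbr2- TSA library 1, and 968, 1071 and 1203 without Tbr2- TSA 2, Tbr2+ TSA 1 and Tbr2+ TSA 2. Where 1 TSA library was left, it is assumed to vary like the other groups. Gene ends apart ran from 134 to 201, 319 to 402, 271 to 403 and 14 to 25 (vehicle, TSA, TSA in Tbr2+, TSA in Tbr2-). With all libraries they were 111, 292, 224 and 8, and they rose since fewer libraries had to agree. Ligand genes ran 4 to 5, 4 to 4, 1 to 1 and 0 to 0. A gene already apart stays apart when a library is left out. These counts could therefore not fall, and they do not test the pattern.

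DESeq2 called 3090 genes between populations with TSA (edgeR 1871), with 3 ligand genes against 2, the added one Wnt7b, and 1060 and 2070 for TSA in Tbr2+ and Tbr2- nuclei (0 and 236), 1 ligand gene in each (Fgf3; Fgf15), and 12 for the interaction. Without the filter these were 364 and 944 genes and 1 ligand gene in Tbr2+ nuclei (Fgf3); the 2-group fit gave 401 in Tbr2- nuclei. The causes were not tested. Gene ends apart with vehicle were 212 with the 30000 strongest peaks and 169 with 200 bp covered; with TSA 187 at the start only and 141 with the 30000 strongest. For TSA in Tbr2+ nuclei they were 121 and 31, with 0 and 0 ligand genes, and in Tbr2- nuclei 5 and 17.

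With the replicate block, 4266 genes and the same count of 3 ligand genes were called in the vehicle comparison. The block gave 13 and 14 genes for TSA in Tbr2+ and Tbr2- nuclei, where same-numbered libraries did not deviate together. The block changed the call of none of the ligand genes tested. Since it joined vehicle and TSA libraries of the same number, it does not check a pairing within each treatment.

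Direction was not stable for low or small changes, none of which passed the test. Leaving out 1 library, the log2 fold change of Bmp7 ran from -0.48 to 0.98 between populations with vehicle, -0.77 to 0.74 with TSA, -0.30 to 1.30 for TSA in Tbr2+ nuclei and -0.92 to 0.67 for the interaction. Ihh ran from -0.054 to 7.96 between populations with TSA, -1.26 to 1.62 for TSA in Tbr2+ nuclei and -7.20 to 0.82 for the interaction. Wnt7b ran from -0.076 to 0.014 and -0.28 to 0.0040 for TSA in Tbr2+ and Tbr2- nuclei and -0.040 to 0.25 for the interaction. For TSA, Wnt8b ran from -0.96 to 0.81 in Tbr2+ nuclei, and Wnt4 from -0.89 to 0.079 and Shh from -0.35 to 0.55 in Tbr2- nuclei. Interactions of Wnt8b ran from -0.58 to 1.19, Wnt7a -0.17 to 0.80 and Fgf15 -0.53 to 0.41. Shh for TSA in Tbr2- nuclei was 0.0057 without the filter and 0.24 with the replicate block, which gave -0.24 for the Bmp7 interaction.

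Counts were low for Ihh, Shh and Bmp4, at 0 to 56 per library, and in Tbr2+ nuclei for Fgf3, at 0 to 13, and Wnt4, at 3 to 20.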
